A study of Mus musculus with 6 samples.

Results

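Chemokines, cytokines and their receptors are the messengers and sensors by which mesenchymal cells recruit leukocytes and steer bone and marrow cells, and 50 such genes were followed here among the 55401 genes of the count table. The members were given as a list of mouse gene symbols covering CC, CXC and CX3C chemokines, chemokine receptors, interleukins of the IL-6, IL-1 and other families with their receptors, colony-stimulating factors and the TNF family, and all 50 matched 1 Ensembl gene each. The cells were C3H10T1/2, a mouse line with the properties of mesenchymal stem cells. Derivatives of it carried a control short hairpin RNA (shControl), a hairpin against Nfib (shNFIB), which encodes a nuclear factor I transcription factor, or a hairpin against Kmt2a (shMLL1), which encodes the histone H3 lysine 4 methyltransferase MLL1. Each was taken untreated at day 0 and at day 7 of osteogenic medium, which held dexamethasone, a synthetic glucocorticoid, at 0.1 µM, ascorbic acid 2-phosphate at 100 µg/ml and β-glycerophosphate at 20 mM. With 6 conditions and 1 library for each, the change of medium, the glucocorticoid and the time in culture cannot be told apart, and each hairpin is represented by 1 set of cells, whose derivation is not given in the sources used here.

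CC and CXC chemokines are small secreted proteins that attract leukocytes through G protein-coupled receptors, while atypical receptors such as Ackr3 and Ackr4 bind chemokines and clear them. Cytokines of the IL-6 family signal through the shared subunit gp130, encoded by Il6st, to Janus kinases and STAT factors. Many inflammatory chemokine genes are activated by NF-kB, and glucocorticoids bound to their receptor are known to repress part of that program and to raise a set of direct target genes. In bone, Cxcl12 marks the stromal cells that hold blood progenitors, and osteoprotegerin (Tnfrsf11b) blocks RANKL (Tnfsf11), the signal for osteoclast formation.

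Promoters are shown first for the members with the largest falls between the days (Ccl8, Ccl20 and Il13ra1), for Cxcl12 and Il6ra among those that rose most, and for Cxcl1 and Il6, which were chosen after their values were seen. The promoter of Lifr, which rose more than Il6ra, is not shown. Each run covers 250 bases before to 50 after the RefSeq start of the gene on build GRCm38.p6 and is read along the gene's own strand. Capitals mark matches to any of the motifs searched on both strands.
Ccl8 (chr11:82114935-82115234, + strand): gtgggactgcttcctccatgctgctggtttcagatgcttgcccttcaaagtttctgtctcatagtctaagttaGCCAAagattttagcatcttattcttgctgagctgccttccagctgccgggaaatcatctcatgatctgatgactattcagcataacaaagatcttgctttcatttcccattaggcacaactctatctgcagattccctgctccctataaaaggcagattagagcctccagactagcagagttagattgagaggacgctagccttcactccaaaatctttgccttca
Ccl20 (chr1:83116516-83116815, + strand): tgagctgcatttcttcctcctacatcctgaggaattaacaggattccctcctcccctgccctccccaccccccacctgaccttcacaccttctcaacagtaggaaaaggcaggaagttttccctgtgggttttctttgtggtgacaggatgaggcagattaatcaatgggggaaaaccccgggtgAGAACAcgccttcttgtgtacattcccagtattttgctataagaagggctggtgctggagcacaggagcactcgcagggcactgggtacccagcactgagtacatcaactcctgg
Il13ra1 (chrX:36111858-36112157, + strand): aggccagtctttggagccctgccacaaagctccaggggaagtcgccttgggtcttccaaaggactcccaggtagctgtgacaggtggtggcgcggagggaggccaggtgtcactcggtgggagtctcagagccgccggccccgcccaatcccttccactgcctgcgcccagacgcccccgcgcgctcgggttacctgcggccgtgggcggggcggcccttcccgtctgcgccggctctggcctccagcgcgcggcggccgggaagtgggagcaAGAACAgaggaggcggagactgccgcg
Cxcl12 (chr6:117168285-117168584, + strand): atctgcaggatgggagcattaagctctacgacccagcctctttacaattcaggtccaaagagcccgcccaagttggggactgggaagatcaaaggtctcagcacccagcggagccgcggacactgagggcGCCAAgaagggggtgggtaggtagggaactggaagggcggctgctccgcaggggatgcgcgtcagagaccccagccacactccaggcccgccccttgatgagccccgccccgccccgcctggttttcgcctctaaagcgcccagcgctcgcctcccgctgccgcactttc
Il6ra (chr3:89913147-89913446, - strand): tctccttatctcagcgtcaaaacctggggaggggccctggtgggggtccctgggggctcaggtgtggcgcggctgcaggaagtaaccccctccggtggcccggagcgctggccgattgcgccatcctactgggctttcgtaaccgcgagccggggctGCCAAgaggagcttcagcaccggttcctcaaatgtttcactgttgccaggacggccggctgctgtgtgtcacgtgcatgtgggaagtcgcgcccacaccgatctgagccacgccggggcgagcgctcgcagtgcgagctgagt
Cxcl1 (chr5:90890995-90891294, + strand): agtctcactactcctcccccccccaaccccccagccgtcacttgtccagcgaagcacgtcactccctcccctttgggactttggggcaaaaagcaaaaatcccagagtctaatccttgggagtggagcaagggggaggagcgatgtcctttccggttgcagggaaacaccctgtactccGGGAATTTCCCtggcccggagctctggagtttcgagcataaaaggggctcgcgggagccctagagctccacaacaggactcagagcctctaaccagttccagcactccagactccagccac
Il6 (chr5:30012864-30013163, + strand): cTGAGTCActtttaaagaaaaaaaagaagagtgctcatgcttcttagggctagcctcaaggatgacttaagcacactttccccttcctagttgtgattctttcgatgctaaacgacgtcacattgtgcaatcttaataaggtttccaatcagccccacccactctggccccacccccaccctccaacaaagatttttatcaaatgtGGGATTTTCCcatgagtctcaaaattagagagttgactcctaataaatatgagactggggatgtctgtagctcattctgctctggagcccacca

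The set of RefSeq promoters used here held 37 of the 50 members. The 13 without an entry were Ccl2, Ccl5, Ccl7, Ccl11, Cxcl5, Cxcl16, Csf3, Il10rb, Il15, Il17ra, Il34, Tnfrsf11b and Tslp, so that the shares below do not cover them. With the start base counted as 0, the NF-kB motif, searched as GGGA followed by any 2 bases and TTCC, stood as GGGAATTTCC at -71 to -62 before Cxcl1, overlapping a further match on the opposite strand at -70 to -61, and as GGGATTTTCC at -44 to -35 before Il6. It was in 5 of the 37 member promoters (Csf1, Cxcl1, Cxcl2, Il6 and Kitl), or 13.5%, against 1.47% of all 32851 promoters of that length. The AP-1 letters TGANTCA, present at -249 to -243 before Il6, were in 6 member promoters (16.2%) against 7.81% of all. The whole palindromes of the glucocorticoid receptor and of NFI were in none of the member promoters and in 0.00913% and 0.0365% of all. Their half-sites were common everywhere. The receptor half-site AGAACA, present in Ccl20 (-65 to -60) and Il13ra1 (23 to 28), was in 18.9% of member promoters against 19.0% of all. The NFI half-site TTGGC, present on the opposite strand in Ccl8, Cxcl12 and Il6ra, was in 45.9% against 46.7%. A match describes letters in a window of sequence and not the binding of a factor.

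The deposited values are raw counts per gene, with library totals between 21608680 (shMLL1, day 7) and 34774066 (shNFIB, day 0). Counts were scaled to library size (CPM) with TMM factors between 0.930 and 1.13. A gene at 3 counts or fewer in a library, equal to 0.0915 to 0.123 CPM, is called at the floor here. Each hairpin target was lower in its own line than in shControl cells. Nfib stood at 34.0 CPM in shNFIB against 116 CPM in shControl at day 0, and at 8.04 against 83.3 CPM at day 7. Kmt2a stood at 32.5 CPM in shMLL1 against 74.7 CPM in shControl at day 0, and at 34.9 against 66.2 CPM at day 7. Mesenchymal markers summed to 8629 to 16450 CPM at day 0 and to 6691 to 8749 CPM at day 7. They did not move alike. In the test described further on, Pdgfra was higher at day 7 (log2 1.81, adjusted p = 0.0272). Thy1 (-1.02, adjusted p = 0.00911) and Vim (-1.13, adjusted p = 0.0294) were lower. Nt5e had 1 to 6 counts and was not tested. Of the leukocyte markers, Ptprc, Adgre1, Itgam and Cd3e were at the floor in all libraries, and the markers summed to 22.4 to 27.1 CPM at day 0 and 17.3 to 26.6 CPM at day 7, mostly Cd14. The macrophage marker Cd68 had 62, 38 and 66 counts in untreated shControl, shNFIB and shMLL1 cells and 217, 118 and 185 counts at day 7. It was called higher at day 7 in the test described further on (log2 1.78, SE 0.30, adjusted p = 0.00592), and its part in the results was not tested. The 5 endothelial markers summed to 3.56 to 24.5 and 2.78 to 5.07 CPM, mostly Tek, and the 5 epithelial markers to 5.67 to 9.01 and 0.20 to 1.18 CPM, mostly Cdh1, which fell with the day as did Tek. In bulk RNA, fewer cells of a type and less RNA per cell cannot be told apart.

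The members spanned the whole range of expression. Per kilobase of exon, the highest mean levels over the 6 libraries were those of Cxcl12 at 381 CPM per kb, the monocyte attractants Ccl7 at 245 and Ccl2 at 193, the IL-1 receptor antagonist Il1rn at 191, the neutrophil attractant Cxcl5 at 159, the macrophage growth factor Csf1 at 81.3 and Cxcl1 at 77.8. The neighbors Ccl2 and Il1rn in this order lay closer together than the libraries of either. At the other end, Cxcl2, Cxcl9, Cxcl14 and Tnf were at the floor in every library, with no count of Tnf or Cxcl14 at all. RANKL (Tnfsf11) had 0 to 4 counts, Csf2 0 to 8, Ccl11 1 to 10, Csf3 0 to 12 and Cxcr4, the signaling receptor for Cxcl12, 0 to 15. These 9 members failed the filter on low counts, and the other 41 were tested among 16742 genes.

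**Figure D1:**
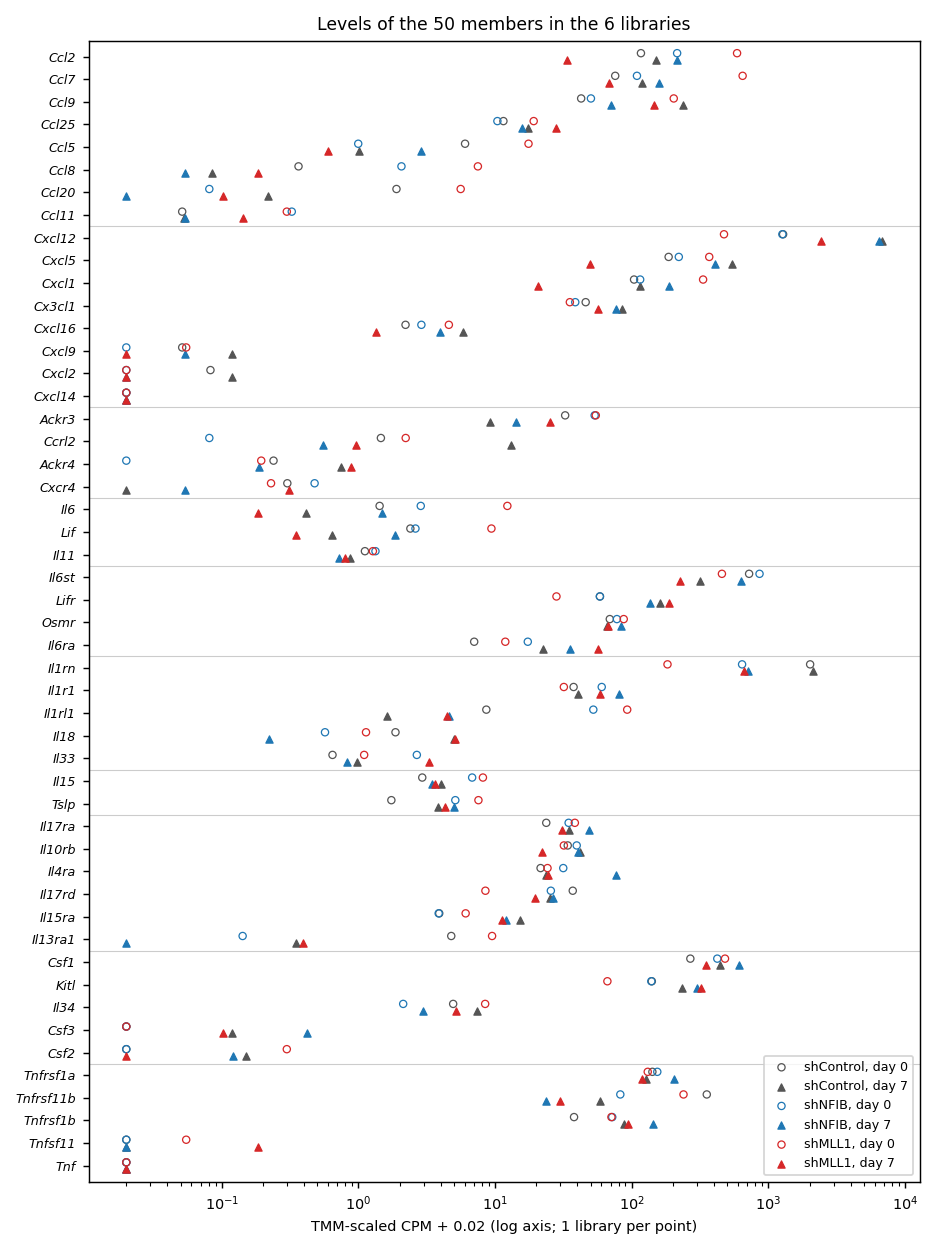
Level of each of the 50 members (TMM-scaled CPM plus 0.02, log axis) in the 6 libraries, grouped by role, with open circles for day 0, filled triangles for day 7 and colors for the lines. Cxcl12 lies farthest right, at 473 to 6765 CPM, while Tnf and Cxcl14 sit on the left edge with 0 counts in all libraries.

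The first comparison asked how osteogenic medium changed these genes over all 3 lines. The quasi-likelihood test of edgeR had a block for the line, with p-values adjusted over all genes tested by the method of Benjamini and Hochberg. By that test 7 members rose (background 16.9% of all genes) and 7 fell (background 16.7%), which is 17.1% of the 41 tested in each direction. These shares were near the background, and the median log2 fold change was 0.08 over the members against -0.0047 over all genes. Without the shMLL1 line, 11 of 39 members were higher (28.2%, against 15.4% of all genes), and without the shNFIB line 10 of 41 were lower (24.4%, against 14.1%). Without the shControl line, 4 of 39 were higher (10.3%, against 7.61%) and 5 lower (12.8%, against 7.51%). The members that rose were Cxcl12, Cx3cl1, Il6ra, Lifr, Il15ra, Kitl and Tnfrsf1b. Those that fell were Ccl8, Ccl20, Ackr3, Il6st, Il1rl1, Il13ra1 and Tnfrsf11b. By role, the calls among CC chemokines were 0 higher and 2 lower of 7 tested, among CXC and CX3C chemokines 2 higher and 0 lower of 5, and among receptors of the IL-6 family 2 higher and 1 lower of 4.

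**Figure D2:**
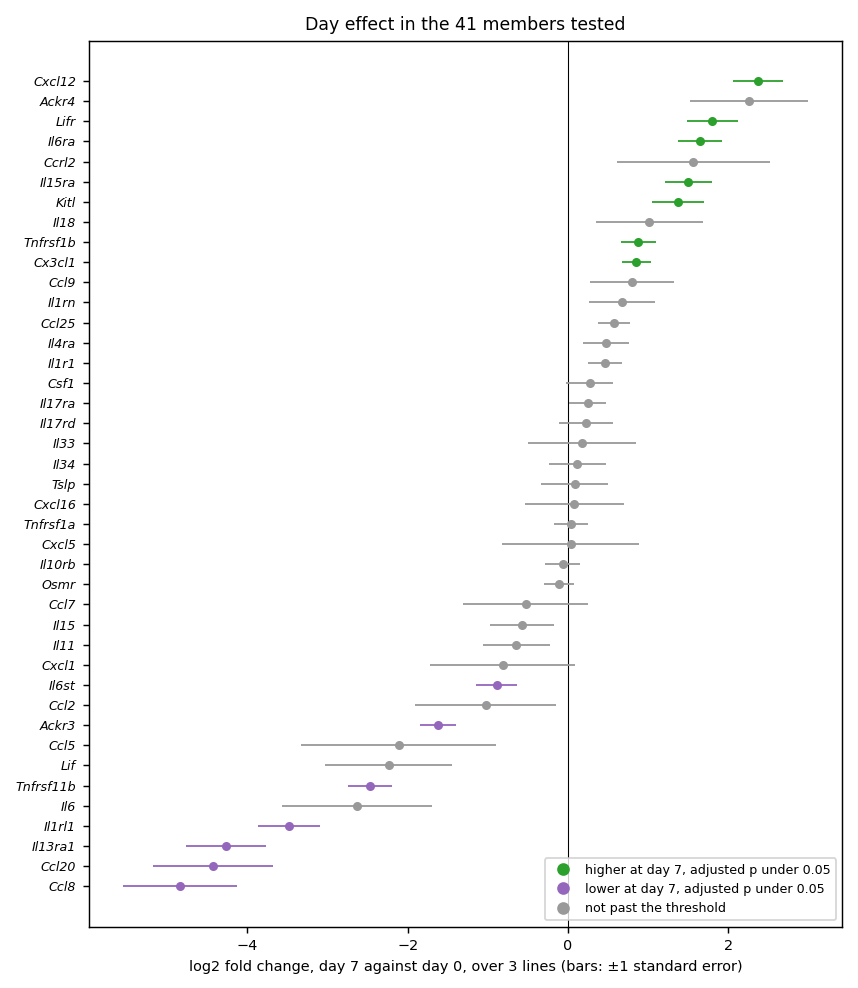
Log2 fold change at day 7 against day 0 over the 3 lines for the 41 members tested, with bars of 1 standard error, green for higher and purple for lower at an adjusted p under 0.05. Values run from -4.84 for Ccl8 to 2.37 for Cxcl12, and 14 members are colored.

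Cxcl12, the homeostatic chemokine of marrow stroma, rose most. Values of the libraries are given from here on in the order shControl, shNFIB, shMLL1. Cxcl12 was at 1282, 1266 and 473 CPM at day 0 and at 6765, 6451 and 2442 CPM at day 7. Every day 7 library lay above every day 0 library, and shMLL1 cells were lowest on both days. The log2 fold change was 2.37 (SE 0.31, adjusted p = 0.00221), and within the lines the ratios were nearly equal, at 2.40, 2.35 and 2.37 on the log2 scale. Cx3cl1, a membrane-bound chemokine with a single receptor, moved from 46.0, 38.6 and 35.2 CPM to 84.8, 76.6 and 56.5 CPM (log2 0.85, SE 0.18, adjusted p = 0.0131), again without overlap of the days. Without the shControl line its adjusted p was 0.0982.

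The CC chemokines that fell were low in abundance. Ccl8, a monocyte attractant, had 11, 67 and 214 counts at day 0 and 2, 1 and 4 counts at day 7 (log2 -4.84, SE 0.71, adjusted p = 0.00353). The days did not overlap, and at day 7 the shControl and shNFIB libraries were at the floor. Ccl20, an attractant of lymphocytes and dendritic cells, had 60, 2 and 160 counts at day 0 and 6, 0 and 2 counts at day 7. The shNFIB library was at the floor on both days, so that the fall rested on the other lines (log2 -4.43, SE 0.75, adjusted p = 0.00582). Without a block for the line its adjusted p was 0.0527, and it did not pass the filter without shControl or without shMLL1. Ccl25, a thymic and gut chemokine, was at 11.5, 10.4 and 19.1 CPM at day 0 and at 17.3, 15.7 and 27.7 CPM at day 7, and did not pass the test (log2 0.57, adjusted p = 0.0594). Its exons overlap those of Elavl1 on the opposite strand, and the strand setting of the counting is not stated in the sources used here, so that reads of both genes cannot be told apart. The same holds for Cxcl16 with Zmynd15, Ackr4 with Acad11, and for Il6ra, Il4ra, Il34 and Csf2 with antisense transcripts, while Il10rb shares exon sequence with Gm21970 on its own strand.

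Of the tested chemokines in the clusters on chromosomes 11 and 5, Ccl8 alone was called with the day, and Ccl11 and Cxcl2 were not tested. Ccl2, Ccl7, Ccl11 and Ccl8 lie within 81.2 kb (chr11:82035571-82116799), Ccl5 and Ccl9 within 52.9 kb on the same chromosome (chr11:83525778-83578636), and Cxcl5, Cxcl1 and Cxcl2 within 147 kb (chr5:90759360-90905938). In the fit over the lines, Ccl2 had a log2 fold change of -1.03 (SE 0.88, adjusted p = 0.387). Ccl5, a T cell and monocyte attractant, was at -2.11 (SE 1.22, adjusted p = 0.208). Cxcl1, a neutrophil attractant, was at -0.81 (SE 0.91, adjusted p = 0.509), and Cxcl5 at 0.03 (SE 0.86, adjusted p = 0.981). Their standard errors of 0.86 to 1.22 compare with 0.31 for Cxcl12, and the lines differed in direction, as described further on. Without the shMLL1 line, Ccl7 was higher at day 7 (log2 0.61, adjusted p = 0.0422), whereas with it the value was -0.53 (adjusted p = 0.623). In the same setting Cxcl5 was higher at 1.23 (adjusted p = 0.00791). Ccl9 was higher there at 1.50 (adjusted p = 0.0312), against 0.80 (SE 0.52, adjusted p = 0.262) over the 3 lines.

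Among chemokine receptors, the decoy receptor Ackr3, which binds Cxcl12, fell while its ligand rose. It was at 32.5, 53.5 and 54.5 CPM at day 0 and at 9.13, 14.2 and 25.0 CPM at day 7 (log2 -1.62, SE 0.23, adjusted p = 0.00314). No day 7 library reached a day 0 library. The signaling receptor Cxcr4 had 9, 15 and 6 counts at day 0 and 0, 1 and 7 counts at day 7 and was not tested. Ackr4, a scavenger of Ccl25 and other ligands, had 7, 0 and 5 counts and then 22, 5 and 21 counts, just short of the threshold (log2 2.26, SE 0.74, adjusted p = 0.0507). It passed with the size factors of DESeq2 (0.0493), with all genes that had a count (0.0478) and with scaling to library size alone (0.0424). Ccrl2 was at log2 1.56 (SE 0.96, adjusted p = 0.234), and at 3.18 (adjusted p = 0.00214) without the shMLL1 line.

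The IL-6 family showed opposite directions within its receptors. Il6ra, the specific chain for interleukin 6, was at 7.01, 17.3 and 11.9 CPM at day 0 and at 22.3, 35.1 and 56.5 CPM at day 7 (log2 1.64, SE 0.27, adjusted p = 0.00543). Lifr, the receptor of leukemia inhibitory factor, was at 58.5, 58.4 and 28.1 CPM at day 0 and at 160, 137 and 189 CPM at day 7 (log2 1.80, SE 0.32, adjusted p = 0.00696). For both, all day 7 libraries lay above all day 0 libraries, and shMLL1 cells had the largest ratio of the lines, at 2.25 for Il6ra and 2.75 for Lifr on the log2 scale. The shared subunit Il6st fell from 723, 861 and 457 CPM to 316, 627 and 226 CPM (log2 -0.89, SE 0.26, adjusted p = 0.0346). Its days overlapped, since shNFIB cells at day 7 exceeded shMLL1 cells at day 0, and its adjusted p was 0.272 without the shControl line, 0.192 without a block for the line and 0.0506 with scaling to library size alone. The oncostatin M receptor gene Osmr, a neighbor of Lifr on chromosome 15, was at 69.1, 77.9 and 87.3 CPM and then 66.3, 83.5 and 66.6 CPM (log2 -0.12, adjusted p = 0.659).

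The ligands of that family were low, and none passed the test. Il6 itself was at 1.41, 2.84 and 12.3 CPM at day 0 and at 0.393, 1.47 and 0.164 CPM at day 7 (log2 -2.63, SE 0.94, adjusted p = 0.0658). Lif, a cytokine of stem cells and bone, was at 2.38, 2.59 and 9.38 CPM and then 0.622, 1.84 and 0.329 CPM (log2 -2.24, SE 0.79, adjusted p = 0.0638). Each line had a lower value at day 7 for both genes. For Lif the days did not overlap, as was so for 21.8% of all genes in that direction. Both passed with DESeq2's test (adjusted p = 0.00391 for Il6 and 0.00624 for Lif) and without the shNFIB line (adjusted p = 0.0118 and 0.00774). Il11 was at 1.10 to 1.31 CPM at day 0 and at 0.701 to 0.851 CPM at day 7, also without overlap of the days (log2 -0.65, adjusted p = 0.258).

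In the IL-1 family, Il1rl1, the receptor ST2 for interleukin 33, fell. It was at 8.61, 52.3 and 92.6 CPM at day 0 and at 1.60, 4.57 and 4.40 CPM at day 7 (log2 -3.48, SE 0.39, adjusted p = 0.00122). The day 0 levels of the lines differed by more than 10-fold while the day 7 levels all lay under the lowest day 0 level. Its ligand Il33 had 20, 87 and 31 counts and then 29, 24 and 79 counts, with no common direction (log2 0.18, adjusted p = 0.857). Il18, an inducer of interferon gamma, had 59, 18 and 32 counts and then 153, 6 and 123 counts (log2 1.01, adjusted p = 0.265). The signaling receptor Il1r1, which lies near Il1rl1 on chromosome 1, stood between 31.8 and 80.2 CPM in all libraries (log2 0.46, adjusted p = 0.126).

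Of the remaining interleukin receptors, Il13ra1, a chain of the receptors for interleukins 4 and 13, fell. It had 152, 4 and 272 counts at day 0 and 10, 0 and 9 counts at day 7 (log2 -4.27, SE 0.50, adjusted p = 0.00149, and 0.0617 without a block for the line). The days overlapped because the shNFIB library was already near the floor at day 0. Il15ra, which presents interleukin 15 to lymphocytes, rose from 3.88, 3.84 and 6.07 CPM to 15.3, 12.0 and 11.2 CPM (log2 1.50, SE 0.30, adjusted p = 0.0101, and 0.0780 without the shControl line). Il17ra, Il17rd, Il4ra and Il10rb, receptors for interleukins 17, 4 and 10, had log2 fold changes between -0.07 and 0.47 and passed no threshold, nor did the ligands Il15 (-0.58) and Tslp (0.08).

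In the remaining groups, the stem cell factor gene Kitl rose from 140, 139 and 66.3 CPM to 234, 300.4 and 321 CPM (log2 1.37, SE 0.32, adjusted p = 0.0179). Its days did not overlap, and shMLL1 cells moved from the lowest to the highest of the lines. Csf1 and Il34, ligands of the macrophage receptor Csf1r, had values of 0.27 (adjusted p = 0.499) and 0.11 (adjusted p = 0.823) on the log2 scale. Tnfrsf11b (osteoprotegerin) fell from 354, 82.5 and 239 CPM to 59.0, 23.4 and 29.6 CPM, without overlap (log2 -2.47, SE 0.28, adjusted p = 0.00125). The TNF receptor gene Tnfrsf1b rose from 37.8, 72.0 and 71.0 CPM to 88.0, 144 and 94.6 CPM (log2 0.88, SE 0.22, adjusted p = 0.0217). The other TNF receptor gene, Tnfrsf1a, stayed between 118 and 203 CPM (log2 0.03, adjusted p = 0.915). The call of Tnfrsf1b ended without the shControl line (adjusted p = 0.163), without the shNFIB line (0.0550) and without a block for the line (0.0833).

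Not overlapping between the days were 7 members at a higher level (17.1%, background 23.4%) and 6 at a lower level (14.6%, background 21.8%). Both shares were under the background. Past 2-fold in the same direction in each of the 3 lines were 4 higher members (background 9.05%), Cxcl12, Lifr, Il6ra and Ackr4, and 4 lower members (background 6.34%), Ccl8, Il1rl1, Tnfrsf11b and Ackr3. A library with 0 counts is here past any fold below one with counts. For Ackr4 in shNFIB cells, 5 counts against 0 gave a ratio at least 1.82-fold higher, which is not shown to be past 2-fold. With such a 0 set to the floor, a setting chosen after the data were seen, 3 members were higher in each line, Cxcl12, Lifr and Il6ra (7.32%, against 9.01% of all genes).

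Genes of the surrounding pathways were taken from lists written from general knowledge, with earlier results of these data known. Their counts are therefore no independent support. For each list the background over all genes was 16.9% higher and 16.7% lower. Of 20 glucocorticoid response genes, 14 rose and 0 fell, with a median log2 fold change of 2.10 against -0.0047 over all genes. Zbtb16 had no count at day 0. Its lowest bound of 5.60 also lay above that median, so the median could not depend on its fold. Others that rose were Pdk4 (log2 5.13), Fkbp5 (3.89), Glul (3.70) and Errfi1 (3.68). Of 26 genes of the NF-kB pathway, 3 rose and 4 fell, both under the background, with a median of -0.17. The inhibitor gene Nfkbia, which is also on the glucocorticoid list, rose (log2 1.18, adjusted p = 0.00490). So did the ubiquitin ligase gene Birc3 (0.91, adjusted p = 0.0162) and the kinase gene Ikbkb (0.74, adjusted p = 0.0279). The subunit genes Rel (-1.59, adjusted p = 0.00514) and Nfkb2 (-0.75, adjusted p = 0.0178) fell. Of 22 JAK-STAT and SOCS genes, 21 were tested, 3 rose and 0 fell, also under the background. Those that rose were the feedback inhibitor gene Cish (1.61, adjusted p = 0.00906) and the kinase genes Jak3 (0.96, adjusted p = 0.0478) and Tyk2 (0.70, adjusted p = 0.0410). Of 76 other chemokine, cytokine and receptor genes, 34 were at the floor in every library, 26 were tested, 5 rose and 1 fell. Those that rose included Cntfr, a receptor chain of the IL-6 family (log2 5.92). It had 20, 0 and 0 counts at day 0 and 710, 134 and 18 at day 7, so that its fold rests in part on libraries without counts. Il20rb (2.64), the chemokine receptor gene Ccr7 (1.68) and Clcf1, a ligand of the IL-6 family (1.50), rose as well. The TNF ligand gene Tnfsf9 fell (-1.66, adjusted p = 0.0473).

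The lines did not move alike. Past 2-fold between their own pair of libraries, with a 95% Clopper-Pearson interval of the counts beyond no change, shControl cells had 12 members higher (background 20.5%) and 10 lower (background 14.0%) at day 7. In shNFIB cells 10 were higher (background 15.1%) and 6 lower (background 11.8%), and 9 were higher (22.0%, against 15.1% of all genes) with the 0 counts of Ackr4 set to the floor. In shMLL1 cells 9 were higher (background 22.6%) and 17, or 41.5% of those tested, were lower (background 19.4%). These pairs hold 1 library for each condition, so they have no replicate check, and the intervals cover counting error only. Past 2-fold lower in shMLL1 cells and in neither other line were 7 members (background 8.11%), namely Ccl2, Ccl7, Cxcl1, Cxcl5, Cxcl16, Ccrl2 and Il15. Il15 was lower in shNFIB cells too, just short of 2-fold (log2 ratio -0.98, interval -1.33 to -0.63).

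The inflammatory chemokines Ccl2, Ccl7, Cxcl1 and Cxcl5 showed this most in abundance. Ccl2 was at 117, 215 and 590 CPM at day 0 and at 151, 215 and 33.3 CPM at day 7. In shMLL1 cells the log2 ratio of the days was -4.15 (interval -4.25 to -4.04), so that the line moved from the highest to the lowest level of the lines, while the shNFIB level was nearly the same on both days. Ccl7 was at 75.7, 109 and 648 CPM and then at 119, 157 and 68.0 CPM, with a log2 ratio of -3.25 (interval -3.33 to -3.18) in shMLL1 cells. Cxcl1 was at 104, 115 and 333 CPM and then at 115, 187 and 20.5 CPM, a log2 ratio of -4.02 (interval -4.15 to -3.89). Both were highest in shMLL1 cells at day 0 and lowest there at day 7. Cxcl5 was at 186, 221 and 369 CPM and then at 539, 409 and 49.5 CPM, with log2 ratios of 1.53 (interval 1.49 to 1.58) in shControl cells and -2.90 (interval -2.99 to -2.81) in shMLL1 cells.

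Some less abundant members were also highest in shMLL1 cells at day 0 and lowest there at day 7, while the order of the other lines varied. Il6 in shMLL1 cells had 352 counts at day 0 and 4 at day 7, a log2 ratio of -6.22 (interval -8.11 to -4.85), against -1.84 (interval -2.90 to -0.90) in shControl cells. Lif had 269 and 8 counts in shMLL1 cells, a log2 ratio of -4.83 (interval -6.06 to -3.84). Ccl5 had 503 and 14 counts in shMLL1 cells (log2 ratio -4.93, interval -5.81 to -4.17) and 192 and 30 counts in shControl cells (-2.61), but 32 and 85 counts in shNFIB cells (1.54, interval 0.94 to 2.17). Highest in shMLL1 among the lines at day 0 were 23 of the 41 members or 56.1% (background 40.0%), lowest in shMLL1 at day 7 were 18 or 43.9% (background 32.6%), and both held for 11 or 26.8% (background 10.1%). The 11 were Ccl2, Ccl5, Ccl7, Cxcl1, Cxcl5, Cxcl16, Csf1, Il6, Lif, Il15ra and Il17ra. The shMLL1 library of day 7 had the fewest counts and the largest TMM factor of the 6, and the part of this in the order of the lines was not tested. Whether the lines differ in their response to the medium could not be tested with 1 library for each condition.

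**Figure D3:**
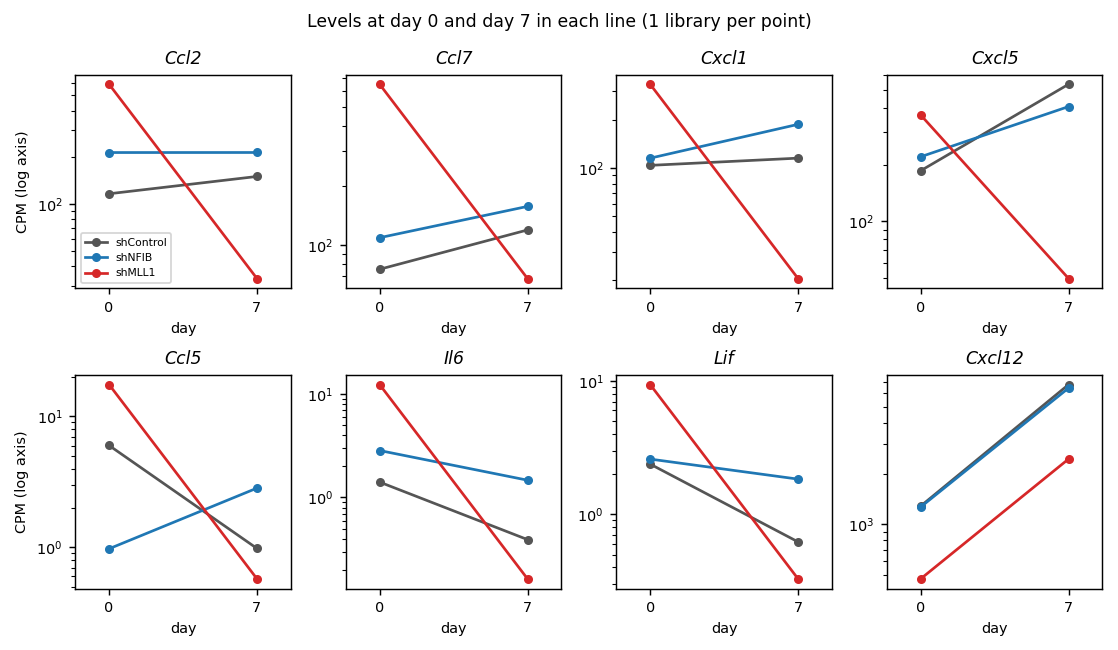
TMM-scaled CPM (log axis) at day 0 and day 7 of Ccl2, Ccl7, Cxcl1, Cxcl5, Ccl5, Il6, Lif and Cxcl12, with 1 library per point and 1 color per line. The shMLL1 line starts highest and ends lowest for all but Cxcl12, which rises in parallel in the 3 lines from 473 to 1282 CPM at day 0 to 2442 to 6765 CPM at day 7.

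The second comparison asked which members differed between shNFIB and shControl cells over both days, with the day as a term. In that test 0 members were higher (background 0.113%) and 1 was lower (background 0.305%). It was Il13ra1, with 4 counts in shNFIB against 152 in shControl cells at day 0 and 0 against 10 at day 7 (log2 -5.44, SE 0.72, edgeR adjusted p = 0.0386). It was also the only member that differed in the joint test of the lines (adjusted p = 0.0376, background 0.800%), in which 0 members and 0 genes in all differed without the day as a block. Between shMLL1 and shNFIB cells it was again the only one, with 272 against 4 and 9 against 0 counts (log2 6.13, SE 0.71, adjusted p = 0.0264, 1 member higher against a background of 0.233% and 0 lower against 0.299%). Unadjusted p-values under 0.05 were found for 14 members in shNFIB against shControl. Many other genes passed that cutoff, since Ackr3, at an unadjusted edgeR p of 0.0409, ranked 1791 among the 16742 genes. With all genes that had a count, 2 of 48 members were higher (4.17%, against 1.17% of all genes) and 6 lower (12.5%, against 1.19%). With DESeq2's test 1 of 42 was higher (2.38%, against 1.70%) and 6 were lower (14.3%, against 1.79%). Each line enters this test with its 2 days as its libraries, so that a difference that changes with the day counts as error. The hairpin target Nfib itself did not pass it in shNFIB against shControl (log2 -2.44, edgeR adjusted p = 0.115). The lack of a call therefore does not show that a member was unchanged.

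At day 0, 7 members were past 2-fold higher (background 5.21%) and 9 past 2-fold lower (background 5.33%) in shNFIB than in shControl cells. At day 7, 5 were higher (background 6.73%) and 9 lower (background 11.0%), or 8 lower (19.5%, against 11.0%) with 0 counts set to the floor. Osteoprotegerin was lower on both days, at 82.5 against 354 CPM (log2 ratio -2.10, interval -2.16 to -2.04) and at 23.4 against 59.0 CPM (-1.33, interval -1.46 to -1.21). Il1rn, which blocks interleukin 1 signaling, was at 642 against 2021 CPM (-1.65) and at 706 against 2120 CPM (-1.59). Ccrl2, an atypical receptor that binds chemerin, had 2 against 46 counts at day 0 (-4.56, interval -7.65 to -2.63) and 16 against 402 at day 7 (-4.62, interval -5.44 to -3.91). Il18 had 18 against 59 counts (-1.75, interval -2.60 to -0.97) and 6 against 153 counts (-4.64, interval -6.11 to -3.49).

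Other members with lower values on both days were Il34, at -1.22 and -1.31, and Ackr4, with 0 against 7 counts (at least 2.39-fold lower) and 5 against 22 counts (-2.11, interval -3.87 to -0.67). Ccl20 had 2 against 60 counts at day 0 (-4.94, interval -8.02 to -3.03) and 0 against 6 at day 7, at least 1.96-fold lower and so not shown to be past 2-fold. Il13ra1 at day 7 was at least 3.27-fold lower. In the opposite direction, Il1rl1 was higher in shNFIB cells on both days, by 2.60 (interval 2.42 to 2.79) and 1.51 (interval 1.03 to 2.01) on the log2 scale, and Il4ra at day 7 by 1.71 (interval 1.59 to 1.83). Ccl5 changed sides, at -2.62 (interval -3.21 to -2.08) at day 0 and 1.53 (interval 0.91 to 2.18) at day 7.

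The third comparison set shMLL1 against shControl cells over both days. With edgeR, 0 members were higher (background 0.0119%) and 0 lower (background 0.0179%), with 9 at an unadjusted p under 0.05. Many other genes passed that cutoff here too, since Tnfrsf11b, at an unadjusted edgeR p of 0.0487, ranked 1503 among the 16742 genes. The hairpin target Kmt2a itself did not pass that test (log2 -1.06, edgeR adjusted p = 0.154). With all genes that had a count, 2 of 48 members were higher (4.17%, against 0.813% of all genes) and 2 lower (4.17%, against 0.999%). With DESeq2's test 3 of 42 were higher (7.14%, against 0.982%) and 2 lower (4.76%, against 1.35%). At day 0, 13 members or 31.7% were past 2-fold higher (background 9.23%) and 5 lower (background 7.14%), and at day 7, 4 were higher (background 6.43%) and 7 lower (background 5.02%). Of the 7 CC chemokines tested, 6 were past 2-fold higher in shMLL1 cells at day 0, all but Ccl25. Ccl8 had 214 against 11 counts (log2 ratio 4.44, interval 3.57 to 5.46) and Ccl7 18578 against 2418 counts (3.10, interval 3.04 to 3.16). Ccl2 was at 2.34 (interval 2.29 to 2.39) and Ccl9, which draws myeloid cells, was at 2.25 (interval 2.17 to 2.34). Il6 was higher by 3.12 (interval 2.67 to 3.61), Tslp by 2.13 (interval 1.70 to 2.58) and Lif by 1.98 (interval 1.61 to 2.37).

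At day 7, 4 of the 5 CXC and CX3C chemokines tested were past 2-fold lower in shMLL1 than in shControl cells (background 5.02%). Cxcl5 had 1205 against 16456 counts (-3.44, interval -3.53 to -3.36), Cxcl1 499 against 3523 counts (-2.49, interval -2.63 to -2.36), Cxcl16 32 against 176 counts (-2.13, interval -2.72 to -1.58) and Cxcl12 59424 against 206708 counts (-1.47, interval -1.48 to -1.46). Ccl2 was lower by the same measure at -2.18 (interval -2.29 to -2.07). Thus 3 members, Ccl2, Cxcl1 and Cxcl16, were past 2-fold higher at day 0 and past 2-fold lower at day 7 (background 0.514%). Past 2-fold higher at day 7 in 1 line and lower in another were 6 members (background 1.61%), Ccl5, Ccrl2, Cxcl5, Cxcl16, Il18 and Il33.

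Other members kept their side on both days. Il1rn was lower in shMLL1 cells at 183 against 2021 CPM at day 0 (-3.47, interval -3.51 to -3.43) and at 668 against 2120 CPM at day 7 (-1.67, interval -1.69 to -1.64). Il1rl1 was higher, with 2656 against 275 counts (3.43, interval 3.25 to 3.61) and 107 against 49 counts (1.46, interval 0.95 to 1.97). Cxcl12 was lower on both days at nearly the same ratio, -1.44 (interval -1.47 to -1.41) and -1.47. The knockdown lines were both compared with the same shControl libraries, so that their ratios are not independent.

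**Figure D4:**
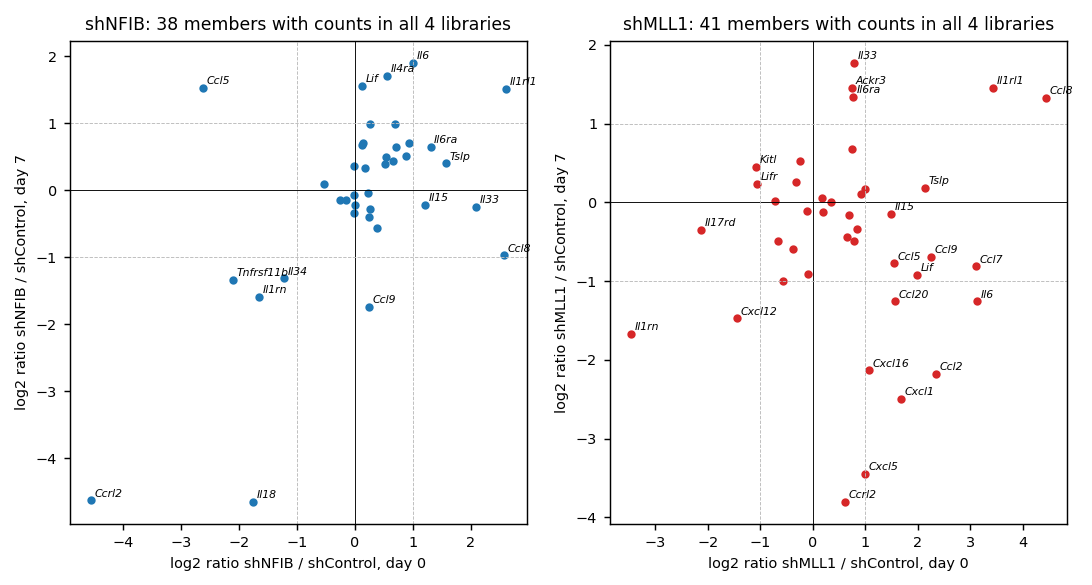
Log2 ratio of each knockdown line to shControl at day 0 (horizontal) against day 7 (vertical), for the tested members with counts in all 4 libraries, 38 for shNFIB and 41 for shMLL1, with dashed lines at 2-fold. Tnfrsf11b and Il1rn lie low on both axes for shNFIB, and Ccl2 and Cxcl1 lie right and low for shMLL1.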

How the data were processed

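RNA-seq counts of 6 C3H10T1/2 libraries were used. The authors trimmed paired 100 bp reads (Trimmomatic 0.39), aligned them to mm10 (HISAT2 2.2.1), dropped PCR duplicates and alignments of mapping quality 30 or less (SAMtools 1.12) and counted them per Ensembl gene (HTSeq 0.11.1). The deposited counts are raw and not normalized, and the strand setting and the annotation release are not given in the sources used here. Positions and exon lengths were taken from GENCODE M21.

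Genes were kept by filterByExpr and fitted in edgeR 4.0.16 (R 4.3.3) with TMM factors, line and day as terms, the quasi-likelihood test and Benjamini-Hochberg adjustment over 16742 genes at 0.05. The fit had a BCV of 0.281 and 2 residual degrees of freedom. The line pairs the days, since both libraries of a line come from the same cells. The deviations of its libraries from the day means correlated at 0.438, 0.412 and 0.257 across genes. Nothing states that the lines came from separate cultures, so that p-values measure the spread between these libraries. Pairs of libraries were given as ratios of TMM-scaled counts with exact Clopper-Pearson 95% intervals and no p-value, where a library with 0 counts was past any fold below one with counts. DESeq2 1.42.0 and other scalings, filters and sets of libraries were alternatives. The steps were tested on simulated data.

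The members and the gene lists were chosen with earlier results of these data known. All 50 members are named. From each list of pathway or cytokine genes at most 5 genes were named, by the largest change among those past the threshold. The cell type markers were named outside this rule, after their values were seen. ChIP-seq and adipogenic samples of the study were not analysed here.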

Additional observations from a re-analysis of the deposited data

Results flagged for a closer look

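The members below had effects that pointed in opposite directions between lines or between days under the same contrast, past 2-fold with counting intervals beyond no change on both sides. With 1 library for each condition the difference was not tested, and no value here has a replicate check. The values are log2 ratios of TMM-scaled counts.

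Between the lines, the ratio of day 7 to day 0 was -2.61 in shControl, 1.54 in shNFIB and -4.93 in shMLL1 cells for Ccl5. For Ccrl2 it was 3.19, 3.13 and -1.22. For Il18 it was 1.44, -1.46 and 2.18. Cxcl16 stood at 1.39 in shControl and -1.80 in shMLL1 cells, and Cxcl5 at 1.53 and -2.90. Il33 stood at -1.73 in shNFIB and 1.59 in shMLL1 cells.

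Between the days, shMLL1 cells were above shControl cells at day 0 and below them at day 7 for Ccl2 (2.34 and -2.18), Cxcl1 (1.68 and -2.49) and Cxcl16 (1.06 and -2.13). The shNFIB cells were below shControl cells for Ccl5 at day 0 (-2.62) and above them at day 7 (1.53).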

How the results depend on the processing

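Of the single-member values from the fits, 867 kept their direction and side of the threshold, 56 passed only under an alternative, 10 were lost and 1 reversed, the day effect of Ccl7 at 0.61 (adjusted p = 0.0422) without the shMLL1 line (-1.35 without the shControl line). Of the values from pairs of libraries, 460 moved by less than their counting interval and 102 by more. Called with the day in all 9 settings in which each was tested were Cxcl12, Lifr, Il6ra and Kitl (higher) and Ccl8, Il1rl1, Tnfrsf11b and Ackr3 (lower). Without a replicate block for the line, 4 members were lower with the day (9.76%, against 11.1% of all genes). Without the day as a replicate block, 0 members and 0 genes in all differed among the lines in the joint test. Without 1 line in turn, the day counts ranged from 4 to 11 higher and 5 to 10 lower, with 4 higher without the shControl line and 11 higher without the shMLL1 line. With all genes that had a count, the calls were 2 higher and 6 lower for shNFIB against shControl, and 2 and 2 for shMLL1 against shControl. For shMLL1 against shNFIB they were 5 higher (10.4%, against 1.36% of all genes) and 3 lower (6.25%, against 2.42%). The joint test called 12 of 48 members, against 4.87% of all genes. With DESeq2's test, shNFIB against shControl had 1 and 6, and shMLL1 against shControl had 3 and 2. Between shMLL1 and shNFIB, DESeq2 gave 5 higher (12.5%, against 2.59%) and 2 lower (5%, against 4.80%). Its joint test called 10 of 41 members, against 7.39% of all genes. With only the 4 libraries compared, shNFIB had 1 higher (2.56%, against 1.84% of all genes) and 4 lower (10.3%, against 1.91%). In the same setting shMLL1 had 1 higher (2.44%, against 0.552%). With a fold over 4, the pairs gave 3 higher and 6 lower for the day in shControl, 3 and 2 in shNFIB, 3 higher for shNFIB against shControl at day 0 and 0 and 5 at day 7, and 7 and 2 for shMLL1 against shControl at day 0 and 0 higher at day 7. With a count of 0 set to the floor of 3 in the fold, a setting chosen after the data were seen, no count of the pairs moved by over 1.5 times. With an exact test at an assumed BCV of 0.2, shNFIB had 4 higher and shMLL1 3 lower at day 0. The shares of all genes are not given for the fold over 4 or for this exact test. The cause of these shifts was not tested, except that a stricter fold leaves fewer calls by construction. Scaling to library size alone moved the median of all genes from -0.0047 to 0.14 for the day effect and the calls over all genes from 2834 higher and 2790 lower to 3287 and 2116. Leaving out a day from the comparisons of lines leaves no residual degrees of freedom, and the values are then those of the pairs. At the floor of 3 counts, ratios of Ccl8, Ccl20, Ackr4 and Il13ra1 are limited by depth.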
